A study of Mus musculus with 8 samples.

Results

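The regions described here were sites of DNA replication initiation that the study listed in Rif1-deficient CH12 cells carrying a control hairpin and in none of its other 3 conditions. They were chosen from the deposited site lists: an autosomal site of the Rif1KO_shLacZ list was taken when it shared not 1 base with any site of the WT, Rif1KO and Rif1KO_shMcm6 lists. The rule took 11380 of the 98867 autosomal Rif1KO_shLacZ sites, or 11.5% (95% Wilson interval 11.3% to 11.7%), and they are called control-only sites below. Over the 4 lists there were 271683 autosomal sites in all. Since presence in a list chose the sites, their read densities with each hairpin are given as a description and carry no test.

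CH12 is a mouse B cell lymphoma line that switches its antibody class when stimulated, and all cells were grown with IL4, CD40 and TGF beta stimulation. Short nascent strand sequencing (SNS-seq) was run on 8 libraries, 2 for each of 4 conditions: WT cells, Rif1KO cells, and Rif1KO cells transduced with a lentiviral hairpin against LacZ, a bacterial gene that serves as control, or against Mcm6. Rif1-deficient CH12 cells are clonal derivatives, and how many clones the libraries came from is not given in the sources used here. Biological replicates were grown from different frozen vials. The deposited density table held 1 pooled value per hairpin, so no spread between replicates could be computed and every interval below covers counting error alone.

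Replication starts where a pair of MCM2-7 helicases, loaded onto DNA in G1 phase, is activated in S phase. MCM6 is a subunit of that ring-shaped helicase, and cells load many more rings than they use. RIF1 binds protein phosphatase 1 and in other cell types holds back the activation of late-replicating domains. In B cells the study found RIF1 mostly in early-replicating chromatin. It reported that loss of RIF1 there delayed early domains and affected late ones less. SNS-seq isolates the short RNA-primed strands that leave each start point, after lambda exonuclease has digested DNA without an RNA primer. G-rich sequences able to fold into G-quadruplexes are known for lying beside the sites that this assay finds, and resist that exonuclease to a degree.

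The site lists were not plain peak calls. Peaks shared by the replicates were kept only where another lay close by, within a distance set separately for each list. That distance, read back from the lists as the longest gap between a site and its nearest neighbour, was 11797 bp for Rif1KO_shLacZ, 10274 bp for Rif1KO_shMcm6, 32075 bp for Rif1KO and 38335 bp for WT. The lists also differed in length, from 25725 autosomal sites in WT and 33465 in Rif1KO to 113626 in Rif1KO_shMcm6. Reads within the sites of the hairpin table came to 21071351 for shLacZ and 23602750 for shMcm6.

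The sequences below show what the extremes of the set look like. They are bases of the plus strand of mm9 at or near the middle of the site, free of annotated untranslated sequence. Capitals mark matches to the G-quadruplex motif searched here: 4 runs of GGG, or of CCC for the other strand, parted by 1 to 7 bases of any kind. The first set holds the control-only sites with the highest shLacZ density, outside the chromosome left out of the printed sequences, and a promoter site of Cebpe, which encodes a myeloid transcription factor.
Near Gm17421, chr12:114602160-114602459: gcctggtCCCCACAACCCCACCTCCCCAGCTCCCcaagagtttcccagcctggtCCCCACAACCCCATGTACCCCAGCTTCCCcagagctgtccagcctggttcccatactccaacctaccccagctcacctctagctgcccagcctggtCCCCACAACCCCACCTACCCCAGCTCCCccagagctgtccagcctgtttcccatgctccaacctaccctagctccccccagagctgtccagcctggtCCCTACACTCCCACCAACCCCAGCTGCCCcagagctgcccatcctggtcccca
Fer1l6 intron, chr15:58394346-58394645: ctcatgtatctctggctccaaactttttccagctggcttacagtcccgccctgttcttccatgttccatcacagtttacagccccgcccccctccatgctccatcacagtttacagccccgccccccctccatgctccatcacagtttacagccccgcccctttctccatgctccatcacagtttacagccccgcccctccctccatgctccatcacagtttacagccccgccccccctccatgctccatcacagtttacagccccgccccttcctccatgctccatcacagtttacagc
Near Hhat, chr1:194621084-194621383: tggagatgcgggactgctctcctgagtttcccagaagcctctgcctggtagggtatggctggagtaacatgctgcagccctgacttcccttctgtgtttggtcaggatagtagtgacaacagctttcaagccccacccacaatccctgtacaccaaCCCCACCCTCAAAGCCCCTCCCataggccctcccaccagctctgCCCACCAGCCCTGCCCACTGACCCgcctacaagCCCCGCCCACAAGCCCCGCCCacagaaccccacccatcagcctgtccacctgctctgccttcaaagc
Slc15a4 and Glt1d1, chr5:128112803-128113102: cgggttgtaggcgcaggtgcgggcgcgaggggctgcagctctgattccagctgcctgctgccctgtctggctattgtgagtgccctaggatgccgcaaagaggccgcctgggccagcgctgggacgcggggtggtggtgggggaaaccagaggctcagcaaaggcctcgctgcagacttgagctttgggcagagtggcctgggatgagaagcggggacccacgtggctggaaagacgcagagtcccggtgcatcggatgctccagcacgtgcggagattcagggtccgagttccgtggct
Cebpe promoter, chr14:55331105-55331404: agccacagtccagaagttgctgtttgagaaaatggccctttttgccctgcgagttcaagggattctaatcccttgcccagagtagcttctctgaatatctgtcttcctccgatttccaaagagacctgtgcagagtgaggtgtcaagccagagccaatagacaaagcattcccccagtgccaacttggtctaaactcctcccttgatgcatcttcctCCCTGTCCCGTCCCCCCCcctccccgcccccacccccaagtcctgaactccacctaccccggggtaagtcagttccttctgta

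The next set holds control-only sites whose density fell far below the control with the Mcm6 hairpin, among those at or above the set's median shLacZ density.
Cacna2d1 intron, chr5:15674507-15674806: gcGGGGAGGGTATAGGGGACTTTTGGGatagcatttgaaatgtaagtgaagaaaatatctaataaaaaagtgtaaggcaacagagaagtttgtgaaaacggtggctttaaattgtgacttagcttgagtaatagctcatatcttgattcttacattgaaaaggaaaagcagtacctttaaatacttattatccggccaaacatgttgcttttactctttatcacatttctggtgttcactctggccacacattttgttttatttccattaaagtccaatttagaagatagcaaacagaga
Itpr2 intron, chr6:146351197-146351496: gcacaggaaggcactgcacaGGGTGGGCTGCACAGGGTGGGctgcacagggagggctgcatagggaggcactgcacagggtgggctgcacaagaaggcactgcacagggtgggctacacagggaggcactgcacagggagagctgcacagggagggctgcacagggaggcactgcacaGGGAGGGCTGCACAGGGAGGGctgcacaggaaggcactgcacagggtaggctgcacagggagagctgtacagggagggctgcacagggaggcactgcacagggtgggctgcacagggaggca
Rfx4 exon, chr10:84306725-84307024: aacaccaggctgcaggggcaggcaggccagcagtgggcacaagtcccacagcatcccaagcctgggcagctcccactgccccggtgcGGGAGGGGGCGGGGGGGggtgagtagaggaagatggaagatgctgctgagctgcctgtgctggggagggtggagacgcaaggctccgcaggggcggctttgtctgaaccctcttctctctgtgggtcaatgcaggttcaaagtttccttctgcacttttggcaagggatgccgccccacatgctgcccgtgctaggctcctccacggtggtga

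Several of these windows were repetitive. The 300 bases near Gm17421 matched themselves at 65.5% of positions when shifted by 48 bases, those in Fer1l6 at 61.7% for a shift of 73, and those in Itpr2 at 72.0% for a shift of 43, while the windows of Rfx4, Cebpe and Slc15a4 stayed between 33.3% and 34.2% at their best shift between 10 and 100 bases. A stricter self-match of at least 80% was found in 44 of the 11380 control-only sites, 0.387% (0.288% to 0.519%), against 0.432% of all Rif1KO_shLacZ sites and 0.16% of windows tiled over the autosomes.

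The control-only sites were narrow and held few reads, though not for their width. Their median width was 425 bp against 530 bp for all Rif1KO_shLacZ sites. Their median density was 2.33 log2 RPM (RPM being a site's reads per 1000000 reads in the sites of the table) with shLacZ, where all sites of that list had 2.92, and 63.2% of them lay in the lowest 25% of the list by density. Per kb of site the medians were alike, at 3.59 log2 RPM per kb for the control-only sites, 3.60 for all sites of the list and 3.51 for sites in both hairpin lists alone. The median site rested on 106 reads with shLacZ and 100 reads with shMcm6.

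With the Mcm6 hairpin the same sites were still read. Their median density was 2.08 log2 RPM, and the lowest single site held 37 reads. The median log2 fold change, shMcm6 minus shLacZ, was -0.23, with a standard deviation of 0.28 over sites and a median counting error of 0.20 for 1 site. Values ran from -1.31 to 1.45, and 2237 of the 11380 sites (19.7%) were read more densely with shMcm6. At the study's threshold of 1.5-fold, 1034 sites (9.09%, interval 8.57% to 9.63%) were lower with shMcm6, where 1.49% of all 127312 autosomal sites of the table were. The share lower was 3.14% with log2(RPM + 1) and 3.45% without the lowest 25% of the sites by density. The 1.49% of the table was not taken under those settings and is no match for them. Only 65 (0.571%) were higher, where 4.82% of the table was. Since the choice of sites used the same libraries, nothing is read from these differences from the table as a whole.

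Other parts of the table give the scale. Sites in both hairpin lists alone had a median log2 fold change of -0.02 (n = 57486), sites in all 4 lists -0.11 (n = 15115), and sites listed only with the Mcm6 hairpin 0.26 (n = 27013). Of the control-only sites, 10281 (90.3%) differed by less than 1.5-fold between the hairpins. Of the 11380 sites, 5958 (52.4%, 51.4% to 53.3%) reached in shMcm6 the density that 90% of the sites listed there exceed, 2.05 log2 RPM, and 1962 (17.2%) reached those sites' median of 2.81. Per kb of site, which takes their narrower width into account, 7763 (68.2%) reached the corresponding level of 3.19 and 3702 (32.5%) the median of 3.52.

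The distance to the nearest Rif1KO_shMcm6 site divided the set. Its median was 11724 bp, and 7487 of the 11380 sites (65.8%) lay farther than 10274 bp, the clustering distance of the Rif1KO_shMcm6 list. In the last kb below that distance there were 202 control-only sites, and in the first kb above it 1263. The median log2 fold change stepped at the same point, from -0.39 to -0.10, and so did the median density with shMcm6, from 1.78 to 2.51 log2 RPM. Each of the 10 bins of 1 kb below the step had a median fold change between -0.41 and -0.34, and each of the 15 bins above it one between -0.26 and -0.10.

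**Figure D1:**
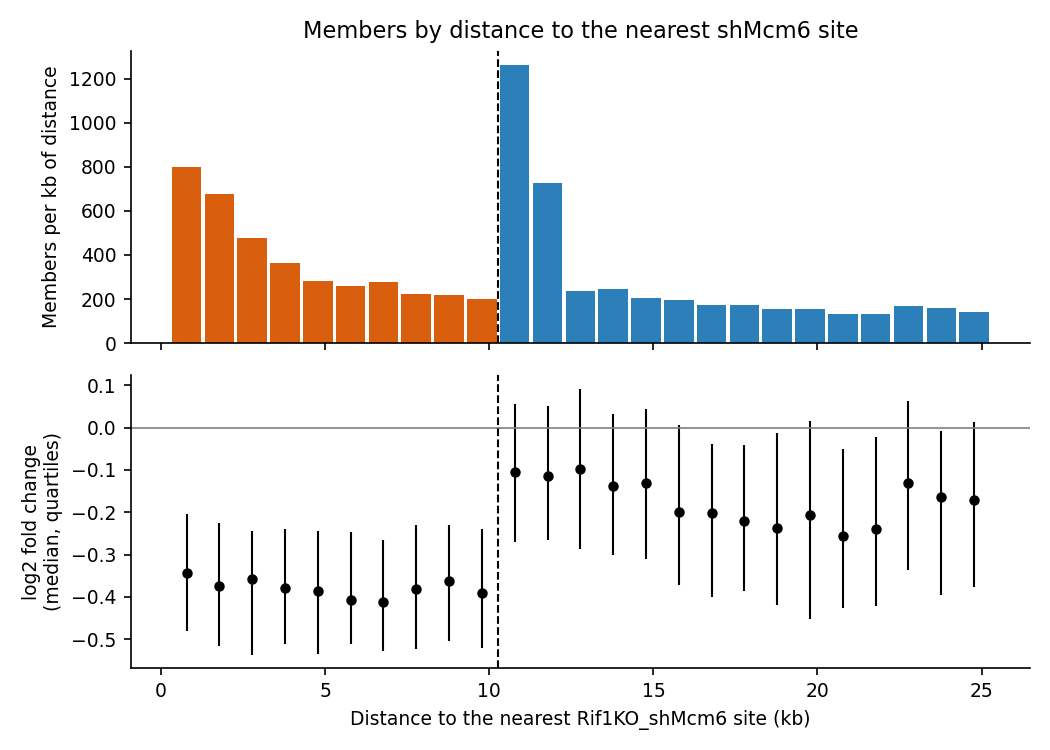
Number of control-only sites (top, bars) and their log2 fold change, shMcm6 minus shLacZ (bottom, median with quartiles), in bins of 1 kb by distance in kb to the nearest Rif1KO_shMcm6 site, from 274 bp upwards. The dashed line marks the clustering distance of that list, 10274 bp, where the count rises from 202 to 1263 and the median fold change from -0.39 to -0.10.

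Sites on the near side and on the far side of 10274 bp differed in width, density per site and fold change. Their median shLacZ density per kb of site was alike, at 3.58 and 3.59 log2 RPM per kb. The intergenic share was alike too, at 61.7% and 62.0%. The 3893 near sites were 371 bp wide at the median and had 2.19 log2 RPM with shLacZ and 1.80 with shMcm6. Their median log2 fold change was -0.37, 96.5% were read less densely with shMcm6, 617 (15.8%) were lower by 1.5-fold and 0 were higher by 1.5-fold. The 7487 far sites were 466 bp wide and had 2.45 and 2.35 log2 RPM. Their median log2 fold change was -0.15, 72.0% were read less densely with shMcm6, 417 (5.57%) were lower by 1.5-fold and 65 (0.868%) were higher. All of the 65 higher sites were far sites. On each of the 19 autosomes the median fold change of the near sites was below that of the far sites, with near medians from -0.41 to -0.35 and far medians from -0.19 to -0.12. At a near site a shared shMcm6 peak would have been listed, so its absence selects for low shMcm6 reads. These differences therefore follow in part from the choice of sites and carry no test.

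**Figure D2:**
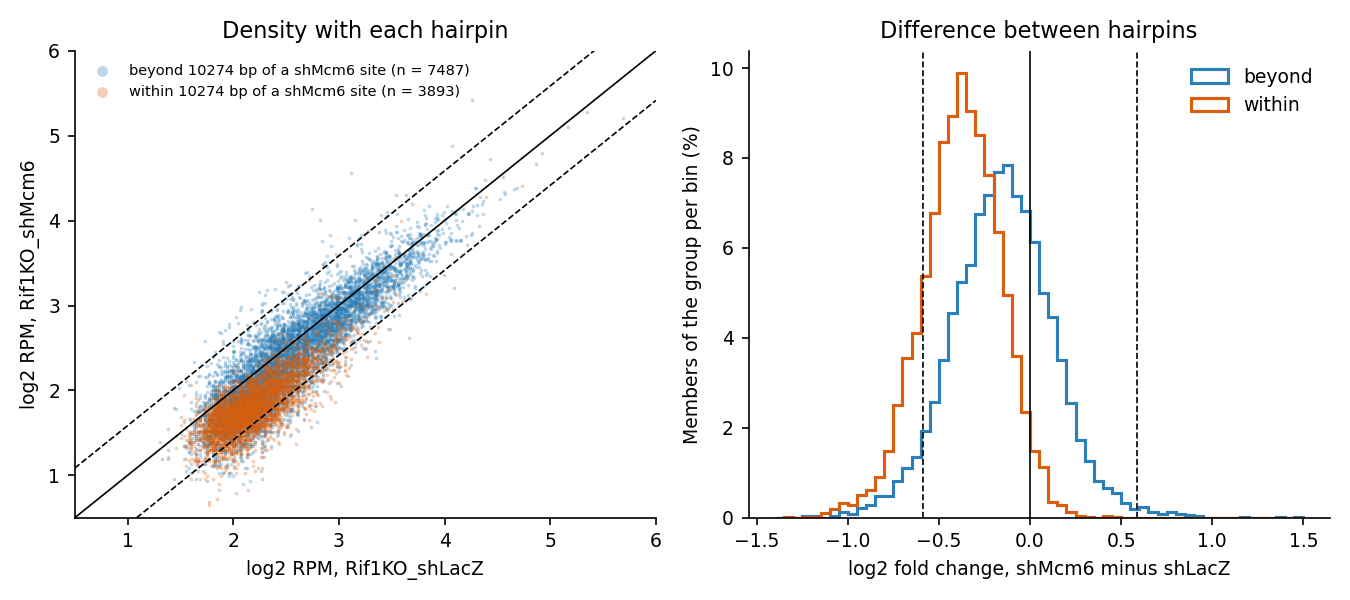
Left, log2 RPM of each control-only site with shLacZ (x) and shMcm6 (y), coloured by distance to the nearest shMcm6 site, with the line of equality (solid) and 1.5-fold lines (dashed). Right, the share of near and far sites in bins of log2 fold change; the near sites centre on -0.37 and the far sites on -0.15.

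A shMcm6 peak farther than 10274 bp from all other shared shMcm6 peaks would have been left out of that list by the clustering step, so absence from the list does not tell whether a peak was called at a far site. The lists give some evidence on this through the running peak numbers of each replicate, which increase along a chromosome and have gaps where a peak was called and not listed. Between the listed shMcm6 sites on either side of a control-only site, both replicates had unlisted peaks for 7393 far sites, 65.0% (64.1% to 65.8%) of the set. In those stretches a shared shMcm6 peak could have lain at the control-only site and been dropped. Their median log2 fold change was -0.15, their median density with shMcm6 was 2.36 log2 RPM, and 399 of them (5.40%) were lower by 1.5-fold. The numbers place an unlisted peak only between listed neighbours, not at the site itself.

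For 3983 sites (35.0%, 34.1% to 35.9%) the lists left no room for a shared shMcm6 peak that the clustering would have removed. For 731 of these neither replicate had an unlisted peak in the stretch. Their difference was the largest, though a lack of called peaks itself selects for low shMcm6 density. They had 2.16 log2 RPM with shLacZ, 1.67 with shMcm6, a median log2 fold change of -0.49, and 233 sites (31.9%) lower by 1.5-fold. A further 1682 had unlisted peaks in 1 replicate alone, with a median of -0.33 and 9.45% lower. The remaining 1570 had unlisted peaks in both replicates but lay within 10274 bp of a listed site, where a shared peak would have been kept, and had a median of -0.37 with 15.4% lower. The 4 sites outside the outermost shMcm6 sites of their chromosomes could not be placed.

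**Figure D3:**
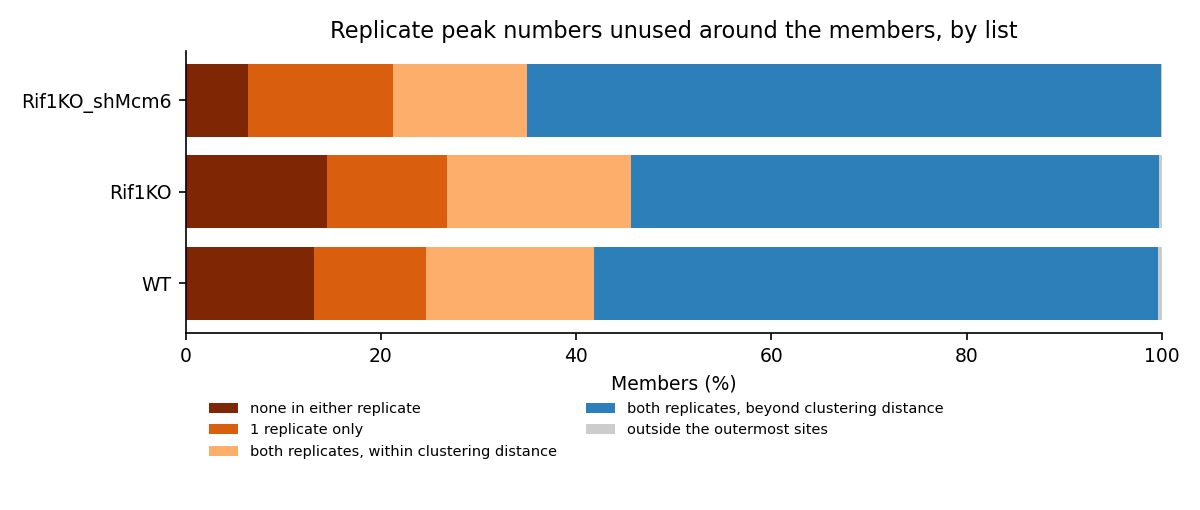
Share of the 11380 control-only sites (percent, x) by whether the replicates of each other list (rows) had called peaks that were not listed between the sites on either side. The blue segment, 65.0% for Rif1KO_shMcm6, holds sites where a shared peak could have been removed by the clustering step.

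The same reading held for the lists without a hairpin. No shared peak removed by clustering could have lain at 4765 sites (41.9%) for WT and at 5189 sites (45.6%) for Rif1KO. All 3 lists left no such room at 1850 sites, 16.3% (15.6% to 16.9%) of the set. These counts concern peaks shared by both replicates and say nothing of a peak called in 1 replicate, and they come from the same lists that chose the sites.

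Sites listed only with the Mcm6 hairpin also rose in number at the other list's clustering distance, with positive fold changes in place of negative ones. The sign goes with the list that chose the sites. Of these 27013 sites, 14322 (53.0%) lay beyond the shLacZ clustering distance of 11797 bp from any Rif1KO_shLacZ site, with 307 in the last kb below it and 547 in the first kb above. Their median log2 fold change was 0.32 within that distance and 0.20 beyond it.

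The far sites, unlike the near ones, lay apart from other shLacZ sites, which the split itself largely sets. Only 14.1% of the shLacZ list overlapped no shMcm6 site. A neighbour that does overlap one must lie about 10274 bp or more from a far site. The distances and cluster counts that follow are a description and were not tested. Over all control-only sites the nearest other Rif1KO_shLacZ site was 6222 bp away at the median, against 4426 bp for all sites of the list, but it was 3482 bp away for the near sites and 9302 bp for the far sites. For 3503 control-only sites (30.8%) that neighbour was farther than 10274 bp, which was so for 6.85% of the whole list. Of the shLacZ sites with so distant a neighbour 51.7% were control-only, and of those with a nearer one 8.55%. Of the 32193 shLacZ clusters, 7967 (24.7%) held a control-only site and 2043 consisted of nothing else, 1788 of these being pairs, 229 of 3 sites, 21 of 4 and 5 of 5. The 4372 sites in such clusters had a median log2 fold change of -0.16, and the other control-only sites -0.28.

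Most stretches were short. Counted along the shLacZ list, 5125 control-only sites (45.0% of the set) had a shared site on both sides, and 74 runs held 5 or more in a row. The longest run had 10 sites over 154 kb of chr14:118323722-118477618, across Gpc6, a cell-surface proteoglycan gene, and Dct, a melanin synthesis gene. Its log2 fold changes ran from -1.01 to 0.14 with a median of -0.28, and 6 shMcm6 sites lay in the same stretch without touching any of the 10. The next had 8 sites over 505 kb of chr8:26571039-27076417, a stretch with the growth factor receptor gene Fgfr1, Star and Kcnu1 among its genes, with fold changes from -0.73 to -0.11. The third, chosen among several of 7 by position, spanned chr13:3297091-3526734 with no protein-coding gene, and its fold changes ran from -0.67 to 0.51.

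The share of control-only sites ran from 9.20% (8.52% to 9.93%) on chromosome 14 to 13.0% on chromosomes 4 (12.2% to 13.9%), 8 and 13. The median log2 fold change of the sites ran from -0.27 to -0.20 over the 19 autosomes, and the share of far sites from 56.2% to 71.9%.

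**Figure D4:**
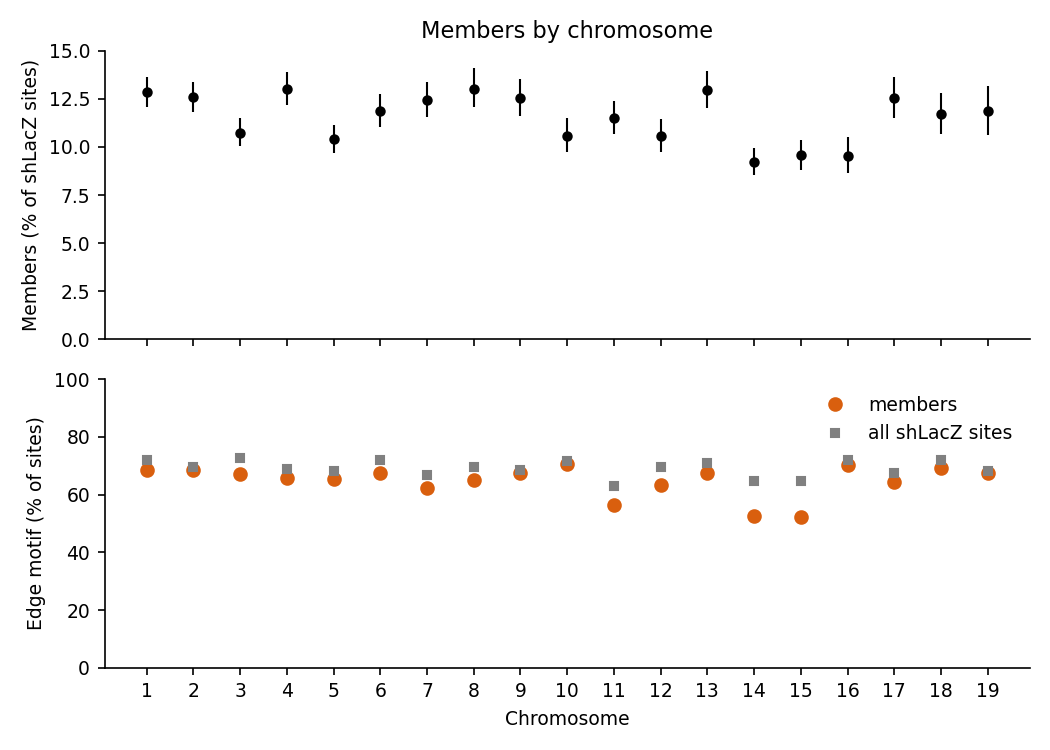
Top, control-only sites as a percentage of the Rif1KO_shLacZ sites of each chromosome, with 95% Wilson intervals; bottom, the percentage of control-only sites (orange) and of all Rif1KO_shLacZ sites (grey) with a G-quadruplex motif at the edge. Chromosomes 14, 15 and 16 have the lowest shares of control-only sites, and the orange points lie below the grey ones on all 19.

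The motif searched, which the rule did not use, stood at the edges of these sites and on 1 strand. A match with its G runs on the plus strand within 100 bp of the left edge, or with its G runs on the minus strand within 100 bp of the right edge, was found at 7386 of the 11380 sites, 64.9% (64.0% to 65.8%). In the mirrored arrangement, with the C runs at the left edge or the G runs at the right one, it was found at 191 sites, 1.68% (1.46% to 1.93%). Left and right edges were used alike, at 32.6% and 33.6% of sites, and 1.24% had a match at both. Of 79796 stretches of 300 bp taken evenly over the autosomes, 3.39% held it in the same arrangement in the outer 200 bp of either end. The motif was most frequent in the first 25 bp inside the edge, where 17.4% of edges had one, against 0.931% at 75 to 100 bp outside.

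**Figure D5:**
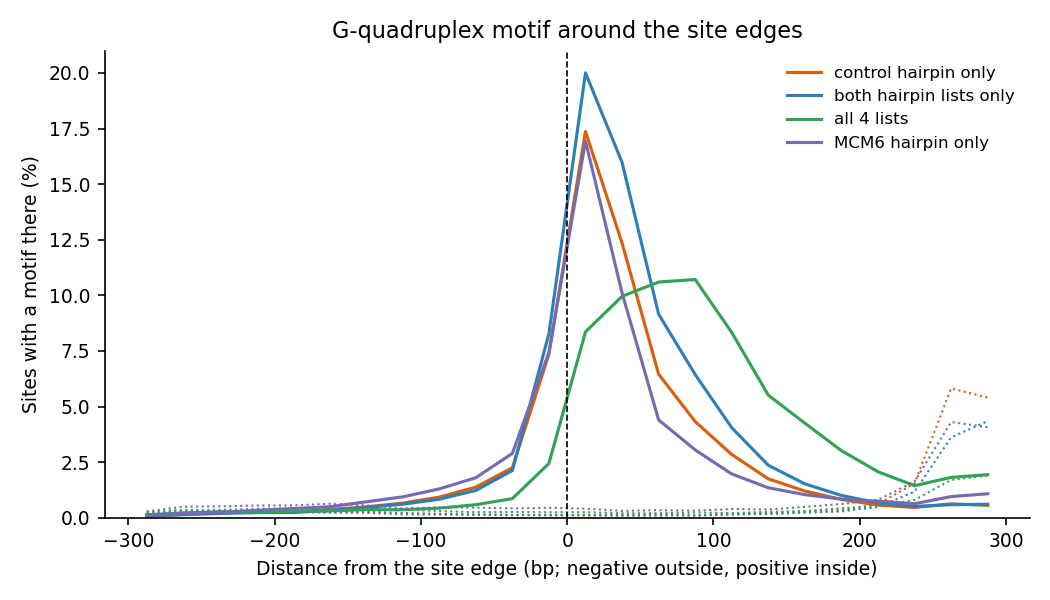
Percentage of site edges with a G-quadruplex motif centred at each distance from the edge (bp, bins of 25), with the G runs on the strand that runs inward from that edge (solid) or on the other strand (dotted), for 4 classes of site. The control-only sites peak at 17.4% just inside the edge; the dotted lines rise past 225 bp, where narrow sites reach their opposite edge.

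Set against the other classes, the control-only sites carried the edge motif less often than sites in both hairpin lists alone, 74.9% (74.5% to 75.2%), or than all Rif1KO_shLacZ sites, 69.1% (68.8% to 69.3%), and more often than sites in all 4 lists, 55.5% (54.7% to 56.3%), or than sites listed only with the Mcm6 hairpin, 61.4% (60.8% to 62.0%). The share was below that of all Rif1KO_shLacZ sites on each of the 19 autosomes, from 52.3% on chromosome 15 to 70.5% on chromosome 10. It was 58.5% among the near sites and 68.2% among the far sites. By width, the shares in the control-only sites and in sites in both hairpin lists were 70.2% and 80.5% at up to 350 bp, and 65.1% and 71.8% above 600 bp. At up to 350 bp sites in all 4 lists had 74.7% (68.0% to 80.4%) and sites listed only with the Mcm6 hairpin 70.1%, and from 350 to 450 bp the control-only sites, at 59.7% (58.1% to 61.3%), were below both, at 63.3% (60.4% to 66.1%) and 63.9% (62.7% to 65.0%).

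The motif was also counted in the middle of the sites. Within the central 300 bases 28.6% (27.7% to 29.4%) of control-only sites held the motif on either strand, against 24.8% of all Rif1KO_shLacZ sites and 5.10% of tiled windows. Over the whole site the shares were 66.5% and 78.8%. In narrow sites the central window reaches the edges, and 56.0% of the control-only sites of up to 350 bp held the motif there, but 13.6% of those of 450 to 600 bp. Sites in both hairpin lists had 64.7% at up to 350 bp, 29.1% against 25.1% from 350 to 450 bp, 13.6% from 450 to 600 bp, and 13.7% against 14.9% above 600 bp.

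Median GC content of the central 300 bases was 44.3%, against 43.7% for all Rif1KO_shLacZ sites, 42.7% for sites in both hairpin lists alone, 47.0% for sites in all 4 lists and 41.7% for tiled windows. Near sites had 46.0% and far sites 43.3%. Control-only sites with the edge motif had 42.0% and those without it 48.0%. Runs of 8 or more CA repeats, or TG on the other strand, were in 1.63% of the sites, 1.98% of all Rif1KO_shLacZ sites, 3.61% of sites listed only with the Mcm6 hairpin and 3.48% of tiled windows.

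By gene context the control-only sites resembled the list they came from. Promoters, taken as within 1 kb of a protein-coding start in GENCODE vM1, held 426 of them, 3.74% (3.41% to 4.11%), against 4.20% of all Rif1KO_shLacZ sites, 3.27% of sites in both hairpin lists alone and 7.35% of sites in all 4 lists. Other exons held 4.21% and introns 30.1%, and 61.9% lay between genes. Promoters held 4.32% of the near sites (3.72% to 5.0%) and 3.45% of the far sites (3.06% to 3.88%). The median distance to a protein-coding start was 48589 bp, against 50601 bp for the whole list.

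The densest control-only site lay in an intron of Kctd1, which encodes a BTB-domain transcriptional repressor, with 5.68 log2 RPM (1084 reads) with shLacZ and 5.21 (872 reads) with shMcm6, a log2 fold change of -0.48 ± 0.07 (counting error). The next, at chr12:114601308-114603312, was 2005 bp wide and had 5.35 and 5.28 log2 RPM, a fold change of -0.07 ± 0.07. It lay between genes in the immunoglobulin heavy-chain locus, where class switching takes place, 1865 bp upstream of the annotated constant-region gene AI324046 and 3401 bp from the start of Gm17421. Its 859 and 919 reads left no difference beyond counting error.

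The Fer1l6 site (chr15:58393882-58395109), in an intron of a ferlin-family membrane protein gene, had 5.17 and 5.11 log2 RPM. The site 23348 bp from Hhat (chr1:194620761-194621707), which encodes the acyltransferase of Hedgehog ligands, had 4.92 and 4.79. Both had fold changes within 2 counting errors of 0, at -0.06 ± 0.07 and -0.13 ± 0.08. The remaining sites of the 8 densest differed by more: -0.20 ± 0.08 at the start of Glt1d1 within Slc15a4, an endolysosomal transporter gene, -0.33 ± 0.09 in an exon of Sfi1, -0.31 ± 0.09 at Cebpe and -0.28 ± 0.09 in an intron of Setd4. Of the 8, the Sfi1 site alone lay within 10274 bp of a shMcm6 site, at 1161 bp.

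Among promoters, the 6 densest control-only sites were all far sites. The site at Slc15a4 and Glt1d1 (chr5:128112055-128113407) had 4.86 log2 RPM with shLacZ and 4.66 with shMcm6, and that at Cebpe (chr14:55330551-55331498) 4.68 and 4.38. The others stood at Jph2, a junctional membrane protein gene of muscle (4.57 and 4.31), at the small GTPase gene Rab43 (4.35 and 4.20), at Duoxa1, a maturation factor of dual oxidase (4.31 and 4.18), and at the acetyltransferase gene Nat3 (4.22 and 4.09). Fold changes of the 6 ran from -0.31 to -0.12. The site at Cebpe lay 10521 bp from the nearest shMcm6 site and those at Duoxa1 and Jph2 lay at 10610 and 10951 bp.

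Among the sites at or above the median density, 6 of the 8 that fell most with the Mcm6 hairpin are described here, with log2 fold changes from -1.16 to -1.07. An intron of Cacna2d1 (chr5:15674433-15674880), a calcium channel subunit gene, had 146 reads with shLacZ and 73 with shMcm6 (-1.16 ± 0.21). An intron of Itpr2 (chr6:146351040-146351653), an IP3 receptor gene, had 140 and 70 (-1.16 ± 0.21). An exon of Rfx4 (chr10:84306660-84307089), a transcription factor gene, had 164 and 86 (-1.09 ± 0.19).

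Of these 6, the lists left no room for a shMcm6 peak removed by clustering at 3: the site in Rfx4, one near the proprotein convertase gene Furin, and one in an intron of the sulfotransferase gene Chst3. At the site in Chst3 neither shMcm6 replicate had an unlisted peak in the stretch. The sites in Cacna2d1 and Itpr2 and the one nearest to Hnrnpa3, 386470 bp away, lay in stretches with unlisted peaks in both replicates.

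The 4 control-only sites with the largest rise with the Mcm6 hairpin are given next, among those at or above the median density. The largest rise was in an intron of Fto (chr8:93938418-93939232), an RNA demethylase gene, from 182 to 557 reads, a log2 fold change of 1.45 ± 0.12. A site nearest to A230072I06Rik (chr8:12133344-12134565) went from 405 to 1007 reads (1.15 ± 0.08), and one in an intron of 1700112E06Rik (chr14:23497669-23498052) from 149 to 381 (1.19 ± 0.14). These, and another nearest to Sall3 at 1.40 ± 0.14, lay between 13274 and 19762 bp from the nearest shMcm6 site, in stretches with unlisted shMcm6 peaks in both replicates. Other lists came closer. The site nearest to Sall3 lay 257 bp from a WT site and 269 bp from a Rif1KO site. The one nearest to A230072I06Rik lay 655 bp from a WT site. Those in Fto and 1700112E06Rik lay at least 17019 bp from either list.

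Of 21418 protein-coding genes 2554 held a control-only site, of which 1539 held 1 and 89 held 5 or more. The 89 had a median annotated length of 564 kb. Gm20388 held 29 of them over an annotated model of 4435 kb that spans other genes, with a median log2 fold change of -0.39 and 6 lower by 1.5-fold, beside 9.09% of the whole set. Dlg2, a synaptic scaffold gene of 1945 kb, held 15 among 96 shLacZ sites (15.6%), with a median of -0.14 and 0 lower. Magi2, Csmd3 and Fgfr2 held 13 each, with medians of -0.26, -0.05 and -0.23, over annotated lengths of 1478, 1211 and 3009 kb. The Fgfr2 sites are thus counted over a very long annotated model, and their place within the gene was not examined. Lrp1b held 11 of its 55 shLacZ sites, with a median of 0.01.

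Among the 8 genes with most control-only sites, Celf2 and Cntnap5a had the highest share of their shLacZ sites control-only. Celf2, an RNA-binding protein gene of 542 kb, held 10 among 24 shLacZ sites (41.7%), and Cntnap5a, a neuronal adhesion gene, 10 among 25 (40.0%). Their medians were -0.14 and -0.25, and 0 of the 10 sites in either gene were lower by 1.5-fold, beside 9.09% of the whole set. A peak removed by clustering could have lain at 9 of the 10 sites in Celf2 and at each of the 10 in Cntnap5a.

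Gene lists relevant to B cells and to replication were read with 1 kb on either side of each gene. Of 26 B cell transcription factor genes 7 held a control-only site: 11 sites among 76 shLacZ sites (14.5%, 8.28% to 24.1%, beside 11.5% over the whole list), with a median log2 fold change of -0.21 and 0 past 1.5-fold either way, beside 9.09% lower and 0.571% higher over the whole set. They were Fli1 (3 sites, -0.43 to -0.21), Bach2 (2), Spib (2), Ebf1, Runx1, Batf and Nfkb1. Batf, which class switching requires, had the densest, at 3.57 log2 RPM with shLacZ and 3.13 with shMcm6, a fold change of -0.44 ± 0.14. The Nfkb1 site went the other way, from 1.91 to 2.39 (0.49 ± 0.21).

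Of the genes of B cell receptor signalling and class switching, 7 of the 29 found held 9 sites among 96 (9.38%, 5.01% to 16.9%, beside 11.5% over the whole list), with a median of -0.41 and 2 lower by 1.5-fold, beside 9.09% of the whole set. The larger fall was at the promoter of Cd22, an inhibitory co-receptor, from 103 to 55 reads (-1.07 ± 0.24). The other was in an intron of Plcg2, the phospholipase downstream of the receptor, from 176 to 112 reads (-0.82 ± 0.17). Cd79a, a signalling chain of the receptor, had a promoter site at -0.52 ± 0.25, 187 bp from a shMcm6 site. Cd74, Prkcb and Malt1 also held sites.

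Of 35 replication initiation genes 4 held 1 site each, among 30 shLacZ sites (13.3%, 5.31% to 29.7%, beside 11.5% over the whole list), and 0 passed 1.5-fold, beside 9.09% lower and 0.571% higher over the whole set. Orc4, a subunit of the origin recognition complex, had a promoter site at -0.11 ± 0.17, and Cdc6, a helicase loading factor, one at -0.18 ± 0.21. Pole and Pold1, the leading-strand and lagging-strand polymerase genes, had sites at 0.30 ± 0.18 and -0.04 ± 0.19, and the Pold1 site is the one counted above for Spib, which lies beside it. The 4 values lay within 2 counting errors of 0.

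Large genes linked to fragile sites held 125 control-only sites in 24 of the 26 genes found, among 1052 shLacZ sites (11.9%, 10.1% to 14.0%), beside 11.5% over the whole list. The median log2 fold change was -0.08, with 6 lower and 1 higher by 1.5-fold, beside 9.09% and 0.571% of the whole set. The lowest was in an intron of Immp2l (90 and 59 reads, -0.77) and the highest in Csmd3 (111 and 216 reads, 0.80).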

How the data were processed

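The members, gene lists and comparisons were chosen with earlier results of these data known. Per the labels and the methods, reads were trimmed with Trim Galore 0.6.4 and cutadapt 2.6 and uniquely aligned to mm9 with Bowtie 1.2.3. Peaks were called with MACS for each replicate without an input library, peaks shared by replicates were found with bedtools, and those in clusters found with ClusterScan were kept. The site lists hold intervals and peak names with no other value. The hairpin table, as deposited, holds log2 RPM, 1 pooled value per condition over merged sites, and its steps gave whole reads for every row within 0.01 of a read. A second table, for WT and Rif1KO, was normalized separately and was not used.

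Sites were compared in Python 3.11.15 (numpy 2.4.6, pandas 2.3.3, pysam 0.24.0). Any shared base counted as overlap. All control-only sites matched exactly 1 row of the hairpin table. The log2 fold change is shMcm6 minus shLacZ, and its counting error comes from the reads of the 2 values. Shares carry 95% Wilson intervals. Genes came from GENCODE vM1 and sequence from NCBIM37 (mm9). Named were the 8 densest sites, the 8 lowest and 4 highest fold changes at or above the median shLacZ density, the 6 densest promoters, the 8 genes with most sites, the 3 longest runs and listed genes with a site; a few of these are not reported here. Of 118 listed genes 116 were found on autosomes, Syk and Ticrr under older symbols. The overlap, read recovery and motif code was tested on simulated data. Edge motifs, the near and far split and peak numbers were added after seeing the data.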

Additional observations from a re-analysis of the deposited data

How the results depend on the processing

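No paired analysis was possible because the table holds 1 pooled value per condition. With 1 value per hairpin leaving out a replicate does not apply, and counting error sets the limit: at the median of about 100 reads a single site's log2 fold change carries an error of 0.20. A value is given below where it left the counting interval of the reported one.

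The share of the shLacZ list was 10.6% when sites within 1 kb counted as shared, 14.1% against the shMcm6 list alone and 11.8% without chromosomes 10, 15 and 16. The median distance was 11100 bp to the nearest site of any other list and 11724 bp to the shMcm6 list alone. Median shLacZ density was 3.59 per kb of site and 2.59 as log2(RPM + 1), and shMcm6 density 3.35 and 2.39. Over sites more than 1 kb from the other lists shMcm6 density was 2.11 and the fold change -0.23. The fold change was -0.19 as log2(RPM + 1).

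The share lower was 0.413% at 2-fold, 37.6% at a log2 threshold of 0.32, 3.14% with log2(RPM + 1) and 3.45% without the lowest 25% by density. The share higher was 0.0351%, 2.71%, 0.343% and 1.18% under those settings. Both shares are of control-only sites alone. No matching share of all sites of the table is given, so they are not set against it. The promoter share was 6.49% with a 2.5 kb window and 5.85% with all annotated genes, against 7.12% and 6.34% of all Rif1KO_shLacZ sites. The intergenic share was 60.8% and 59.1%. GC was 45.0% over the whole site. The motif share was 66.5% over the whole site and 38.3% with loops of up to 12 bases, against 78.8% and 32.6% of all Rif1KO_shLacZ sites. Clusters of control-only sites alone held 41.6% of the sites more than 1 kb from the other lists.

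For the near sites, the far sites and the sites without room for a shMcm6 peak, alternatives added after seeing the data, the values were, in that order, 2.19, 2.45 and 2.19 for shLacZ density, 1.80, 2.35 and 1.80 for shMcm6 density, -0.37, -0.15 and -0.37 for the fold change, 15.8%, 5.57% and 15.9% lower, 0.0%, 0.868% and 0.0% higher, 46.0%, 43.3% and 46.0% GC, 33.7%, 25.9% and 33.7% with the central motif, and 1.34%, 57.7% and 1.83% in clusters of control-only sites alone. The promoter share was 4.32% for near sites and 4.29% for those without room. No fold change turned sign among these alternatives. The motif share of control-only sites was above that of all Rif1KO_shLacZ sites in the central window (28.6% and 24.8%) and below it over the whole site (66.5% and 78.8%).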
